A study of Mus musculus with 2 samples.

Results

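The subject here is a set of 9 genes for regulators of transcription in haematopoietic stem cells: Mecom, Hlf, Mllt3, Meis1 and the Hox genes Hoxa5, Hoxa7, Hoxa9, Hoxb4 and Hoxb5. They were listed by symbol, and all 9 were found among the 27998 genes counted in both libraries. The data are single-cell RNA counts of sorted Lin- Sca-1+ c-Kit+ (LSK) bone marrow cells, a sort that covers HSPCs (stem cells and early progenitors), taken from mice aged 3 months. One library came from Trmt6fl/fl mice without a recombinase (WT) and 1 from Trmt6fl/fl, MX1-cre mice (cKO), as the labels give them, so by the labels both carried the floxed Trmt6 allele. TRMT6 belongs to the methyltransferase that makes m1A in tRNA, and Mx1-Cre is a recombinase under an interferon-inducible promoter, so it acts beyond blood cells. The study's own text, unlike the labels, gives Trmt6+/+ controls, and Mx1-Cre with polyI:C injections in both genotypes, so whether the WT cells carried the floxed allele or the recombinase was not settled. Whether cells of several mice were pooled is not stated, and genotype and library cannot be told apart. With 1 library per genotype no test was possible, and the 95% intervals given cover counting error only.

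A small group of transcription factors keeps haematopoietic stem cells in a self-renewing state, and most of it is switched off as progenitors choose a lineage. HOX proteins bind DNA together with partners of the TALE class, among them MEIS1 and the PBX proteins, and the genes of the HoxA cluster are kept active in these cells by MLL complexes. MECOM (EVI1) is a zinc-finger factor needed for long-term stem cells, HLF is a PAR bZIP factor that restrains their cycling, and MLLT3 (AF9) is a chromatin reader that recruits DOT1L and elongation factors. Among the Hox genes, Hoxa9 and Hoxa7 are known for their activity in stem cells and leukaemia with Meis1, Hoxb4 for expanding stem cells when forced on, and Hoxb5 as a marker of long-term stem cells.

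The WT library held 8145 kept cells with 43066611 UMIs (unique molecular identifiers, 1 per captured RNA molecule) and the cKO library 8474 kept cells with 88153745 UMIs. The median kept cell had 4278 UMIs in WT and 10150 in cKO, so shares of cells with a UMI were computed on cells thinned to 2000 UMIs each (7957 WT and 8375 cKO cells). Levels are UMIs per 1000000 UMIs of the same cells (CPM). No cell annotation was used, and cells were placed in gates by how many markers of a cell type they had in the thinned counts, without any of the 9 genes. The libraries shared 24 barcodes. As a check of the labels, the Trmt6 level was 63.9 CPM in the WT and 50.5 CPM in the cKO library (log2 -0.34, -0.41 to -0.27), and counting from the 3-prime end does not show whether a transcript held the floxed exon. Gates of other cells differed between the libraries: 1141 WT and 57 cKO cells passed the granulocyte-monocyte gate (at least 4 of Mpo, Elane and 8 more), 759 and 145 the lymphoid-primed gate, and 138 and 216 the erythroid gate, while 65.9% and 85.8% passed none. Values with the same mix of gates in both libraries are given below, and they even out the shares of the gates but not the makeup of cells without a gate.

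The promoters of the 4 members with the clearest differences are shown first, since the results below turn on these genes. Each is the 250 bases before a RefSeq start (GRCm38.p6, 5-prime to 3-prime on the strand of the gene, which is minus for all 4). Capitals mark matches, on either strand, to the motifs TGATNNAT (HOX with PBX), TGACAG (bound by MEIS proteins), TGACGTCA (CRE), TTACNTAA (PAR bZIP), AGATAA (bound by zinc-finger factors such as GATA2) and TGATGNAA (CARE). Mecom and Mllt3 have 2 listed starts each, and counts per gene do not show which was used.
Mecom distal start, chr3:30509760-30510009: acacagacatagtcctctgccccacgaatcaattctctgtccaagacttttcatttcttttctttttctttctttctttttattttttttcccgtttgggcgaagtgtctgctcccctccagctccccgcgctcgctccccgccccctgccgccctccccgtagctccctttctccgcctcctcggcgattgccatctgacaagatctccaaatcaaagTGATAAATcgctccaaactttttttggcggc
Mecom proximal start, chr3:30013205-30013454: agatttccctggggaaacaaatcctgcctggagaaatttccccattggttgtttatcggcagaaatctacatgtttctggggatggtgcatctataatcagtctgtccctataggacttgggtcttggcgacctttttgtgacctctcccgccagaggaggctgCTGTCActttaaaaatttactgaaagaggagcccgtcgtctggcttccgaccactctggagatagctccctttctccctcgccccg
Mllt3 distal start, chr4:88033408-88033657: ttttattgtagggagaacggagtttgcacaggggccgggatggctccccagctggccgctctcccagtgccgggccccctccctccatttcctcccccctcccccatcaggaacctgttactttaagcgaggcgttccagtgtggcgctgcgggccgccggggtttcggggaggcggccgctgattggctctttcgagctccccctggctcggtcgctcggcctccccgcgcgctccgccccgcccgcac
Mllt3 proximal start, chr4:87806324-87806573: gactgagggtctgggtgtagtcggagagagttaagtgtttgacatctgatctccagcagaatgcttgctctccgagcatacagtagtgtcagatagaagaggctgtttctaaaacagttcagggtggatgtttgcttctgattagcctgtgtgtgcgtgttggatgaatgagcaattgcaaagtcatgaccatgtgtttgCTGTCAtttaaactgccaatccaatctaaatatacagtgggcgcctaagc
Hlf, chr11:90390918-90391167: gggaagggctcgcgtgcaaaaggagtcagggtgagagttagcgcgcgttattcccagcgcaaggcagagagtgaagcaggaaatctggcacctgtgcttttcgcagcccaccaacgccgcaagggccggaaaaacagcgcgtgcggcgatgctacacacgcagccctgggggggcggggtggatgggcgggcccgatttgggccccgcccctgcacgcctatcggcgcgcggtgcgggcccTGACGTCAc
Meis1, chr11:19018970-19019219: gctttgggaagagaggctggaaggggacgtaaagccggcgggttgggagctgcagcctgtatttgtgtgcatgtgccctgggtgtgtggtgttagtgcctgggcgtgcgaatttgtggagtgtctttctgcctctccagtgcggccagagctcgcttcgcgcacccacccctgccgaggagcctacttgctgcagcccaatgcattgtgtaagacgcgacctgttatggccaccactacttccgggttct
The distal Mecom window held 1 HOX with PBX match, 31 bases before the start. That motif was in 7.68% of all 32851 windows of this length. The proximal windows of Mecom and Mllt3 each held 1 MEIS match, 86 and 50 bases before their starts, against 15.9% of all windows. The Hlf window held a full CRE palindrome 9 bases before the start, against 1.55% of all windows. The Meis1 window and the distal Mllt3 window held none of the 6 motifs. The PAR bZIP, CARE and GATA motifs (2.06%, 3.45% and 9.99% of all windows) were in none of the 10 windows of the 8 members with an entry, and Hoxb5 had no entry. These matches describe letters in these windows and say nothing about binding.

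Over all kept cells, Mecom and Mllt3 stood at more than 2-fold higher levels in the cKO library, while the other members differed by less than 2-fold or not beyond counting error. Mecom (chromosome 3, 29951296 to 30548008, minus strand) was at 23.8 CPM (22.3 to 25.3) in WT against 52.4 CPM (50.9 to 54.0) in cKO, which is a log2 ratio of 1.14 (1.04 to 1.24). Mllt3 (chromosome 4, 87769925 to 88033364, minus strand) was at 15.9 CPM (14.7 to 17.1) and 34.5 CPM (33.3 to 35.8), or 1.12 (0.998 to 1.24) as log2. These 2 of 9 members lay past a 2-fold rise, against 2.88% of the 9144 genes that reached 5 CPM in either library, and 0 of 9 lay past a 2-fold fall, against 5.24%. The median log2 ratio of the members was 0.18, and that of all genes tested was -0.06, which other scalings moved to 0.04 at most. When both libraries were given the same mix of gates, the ratios of Mecom and Mllt3 were 0.71 and 0.78, so both stayed above 0 but under 2-fold. In thinned cells, which weigh each cell the same, Mecom was at 0.89 (0.74 to 1.05) and Mllt3 at 1.14 (0.96 to 1.34).

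Hlf (chromosome 11, 90336536 to 90390895, minus strand) and Meis1 (chromosome 11, 18879817 to 19018985, minus strand) changed little when all cells were summed. Hlf was at 68.5 CPM in WT against 77.7 CPM in cKO (log2 0.18, 0.12 to 0.24), but at -0.11 (-0.21 to -0.00) in thinned cells and at -0.23 with the same mix of gates, so its direction over all cells was not settled. Meis1 was at 59.3 and 58.1 CPM (log2 -0.03, -0.10 to 0.04) and lower in thinned cells, at -0.30 (-0.42 to -0.18). Reads of Meis1 and of its antisense neighbours Gm16140 (8.15 and 9.87 CPM) and Gm16141 (4.71 and 3.30 CPM) cannot be told apart without the strand setting of the counting, which is not given in the sources used here.

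The 5 Hox members showed no common direction. Hoxa9 (chromosome 6, 52223100 to 52231089, minus strand) was the highest of its cluster in UMIs and went from 69.5 to 93.5 CPM (log2 0.43, 0.37 to 0.49). Hoxa7 (chromosome 6, 52214491 to 52221854, minus strand), its neighbour and frequent partner of Meis1 in leukaemia, went the other way, from 49.4 to 43.8 CPM (log2 -0.17, -0.25 to -0.10). Hoxa5 (chromosome 6, 52201754 to 52204587, minus strand), which lies inside the annotated Hoxa3 gene on the same strand, was at 7.62 and 7.93 CPM (log2 0.06, -0.13 to 0.25). Hoxb4 (chromosome 11, 96318267 to 96321638, plus strand) was at 14.9 and 16.1 CPM (log2 0.10, -0.03 to 0.24). Hoxb5 (chromosome 11, 96303336 to 96306121, plus strand) rested on 137 WT and 488 cKO UMIs, at 3.18 and 5.54 CPM (log2 0.80, 0.52 to 1.08), but in thinned cells its ratio of 0.19 (-0.27 to 0.65) spanned 0. The antisense transcript Hoxb5os, which overlaps Hoxb5, went from 3.48 to 11.2 CPM, and its part in the Hoxb5 difference was not tested.

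**Figure D1:**
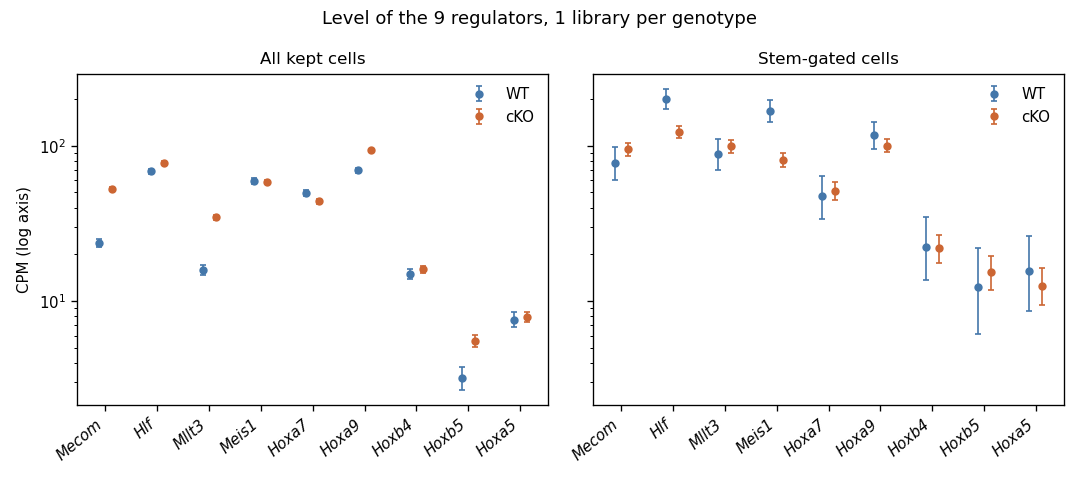
Level of each member in CPM (log axis) over all kept cells (left) and over stem-gated cells (right), 1 library per genotype. Points are CPM and bars are exact Poisson 95% intervals. Mecom and Mllt3 stand apart by more than 2-fold over all kept cells (23.8 against 52.4 and 15.9 against 34.5 CPM). The intervals of Hlf, Hoxa7, Hoxa9 and Hoxb5 are also apart there, by less than 2-fold. Meis1 and Hlf stand apart in the stem gate with the WT library higher.

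The share of cells with at least 1 UMI at equal depth followed the thinned levels. Mecom was detected in 5.83% (5.33 to 6.37) of WT and 10.6% (9.97 to 11.3) of cKO cells, and Mllt3 in 3.64% (3.24 to 4.08) and 7.82% (7.25 to 8.42), with exact binomial intervals. Hoxa9 was also detected more often in cKO (14.4% and 17.3%). Meis1 (13.5% and 11.6%) and Hoxa7 (9.93% and 8.39%) were detected less often, and the intervals of Hlf (15.2% and 15.1%), Hoxb4 (3.38% and 3.32%), Hoxb5 (0.855% and 1.04%) and Hoxa5 (1.81% and 1.64%) overlapped. Thus 3 of 9 members were higher with intervals apart, against 21.6% of all 9144 genes, and 2 were lower, against 29.2%. Both shares are near the background, so the counts of members carry no result beyond the members' own values. Thinning to 4000 UMIs keeps 54.7% of the WT and 96.3% of the cKO cells, and at that depth Meis1 was the other way, higher by 3.52 percentage points in cKO, and 0 members were lower with intervals apart. The Hoxa7 difference was -1.53 percentage points and became -0.90 with another seed of the thinning, where 1 member (Meis1, at -1.61) was still lower with intervals apart. Without thinning Mecom was seen in 11.0% of WT and 38.1% of cKO cells, which mixes level and depth.

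The members were also counted in gates of B, neutrophil and T or NK cell genes. Such cells in an LSK sort need not be mature, so their UMIs are not a measure of background. None of the 41 B-gated cKO cells had a Mecom UMI with or without thinning, and 0 of 41 limits the share of cells with a UMI to 7.32%, not the share that express the gene. Their median was 7344 UMIs against 10150 over all cKO cells. Without thinning, Hlf was seen in 4.88% and Meis1 in 2.44% of these cells, against 48.1% and 43.4% of all cKO cells. Hoxa9 was seen in 22.0% of them, against 55.9%. In WT the 31 cells of the neutrophil granule gate, with a median of 5785 UMIs, held no Mecom UMI (limit 9.68%), and Hlf was seen in 6.45% of them against 25.3% of all WT cells. Of these 31 cells, 51.6% also passed a gate of mitotic genes (G2/M). The T/NK gate, planned for this comparison, held only 7 WT and 20 cKO cells. In thinned counts Meis1 was seen in 3 of its WT and 0 of its cKO cells, Hoxa9 in 2 and 1, and Hoxb4 in 0 and 2. Mllt3 and Hoxa7 were each seen in 1 and 0, and the other members in none.

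The stem gate took cells with at least 2 of 10 stem markers (Procr, Pdzk1ip1, Slamf1, Fgd5, Ctnnal1, Esam, Robo4, Sult1a1, Tcf15, Tek) and no other gate, which gave 260 WT and 523 cKO cells. Its cells do not match between libraries in every marker: Procr (115 and 109 CPM) and Esam (189 and 170 CPM) were close, while Pdzk1ip1 (359 and 143 CPM) and Sult1a1 (71.8 and 7.67 CPM) were lower in cKO. Most marker lists of other cells were also lower in the cKO stem gate, with granulocyte-monocyte genes summing to 1426 CPM in WT and 499 in cKO, neutrophil granule genes to 336 and 4.19, and megakaryocyte genes to 474 and 114. MHC class II genes (293 and 330 CPM) and G2/M genes (681 and 1159 CPM) went the other way. The part of these differences in the values below was not tested, apart from the alternatives given.

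Inside the stem gate the order of the differences was not that of all cells: Meis1 and Hlf were lower in cKO, and the intervals of Mecom and Mllt3 spanned 0, which depended on the setting. Meis1 was at 167 CPM (142 to 196) in WT against 81.2 CPM (72.9 to 90.1) in cKO, which is a log2 ratio of -1.05 (-1.32 to -0.76). It was detected in 33.1% (27.4 to 39.2) of thinned WT and 15.5% (12.5 to 18.9) of thinned cKO cells, while the detection intervals of the other members overlapped. The share of all genes with detection intervals apart in this gate was not computed. Hlf was at 201 CPM (173 to 233) and 123 CPM (112 to 133), with a ratio of -0.72 (-0.96 to -0.46). Mecom was at 77.4 CPM (60.3 to 98.0) and 94.7 CPM (85.7 to 104), with a ratio of 0.28 (-0.08 to 0.68), and Mllt3 was at 88.7 and 99.5 CPM (0.16, -0.18 to 0.53). The Mecom interval lay above 0 with TMM (0.42, 0.06 to 0.82), median-of-ratios (0.43, 0.07 to 0.83), totals without mitochondrial and ribosomal genes (0.37, 0.01 to 0.77), the UMIs of thinned cells (0.59, 0.05 to 1.19) and any cell that passed the gate (0.38, 0.03 to 0.75). Its ratio was below 0 in 3 of 16 alternatives, the lowest at -0.28. The Mllt3 ratio was 1.02 (0.45 to 1.71) with thinning to 4000 UMIs, 0.69 (0.34 to 1.08) with 1 marker fewer per gate and -0.60 (-1.06 to -0.10) with thinning to 1000 UMIs. The Hox members had intervals that spanned 0, from -0.36 for Hoxa5 (14 WT UMIs) to 0.26 for Hoxb5 (11 WT UMIs). With thinning to 4000 UMIs, however, Hoxa5 turned to 2.26 (0.34 to 8.16) and Hoxa9 was at 0.47 (0.05 to 0.97), and with 1 marker fewer per gate Hoxa5 was at -0.69 (-1.29 to -0.0090). Thus 1 of 9 members lay past a 2-fold fall, against 11.4% of 9582 genes tested in the gate, and 0 past a 2-fold rise, against 4.09%. The members' median was -0.07 and that of all genes -0.13.

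The Meis1 difference lies near the 2-fold line, which it does not reach under some settings: its ratio was -0.90 with TMM or median-of-ratios scaling, which lift the median of all genes in the gate to 0.01, and -0.60 with thinning to 4000 UMIs. It was below 0 in all 16 alternatives, as was Hlf (-0.75 to -0.35). Leaving the 4 markers that were over 2-fold lower in cKO (Pdzk1ip1, Robo4, Sult1a1, Tek) out of the gate gave 60 WT and 272 cKO cells and a Meis1 ratio of -1.48 (-1.95 to -0.96), while Hlf was then at -0.48 (-0.97 to 0.09). Stem-gated cells outside the G2/M gate (at least 3 of 12 mitotic genes) gave -1.03 for Meis1 and -0.71 for Hlf, about as large as with those cells.

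Single markers gave the same picture for Meis1 without any gate. Cells with a Procr UMI had a Meis1 ratio of -0.64 (-0.95 to -0.30), cells with an Esam UMI -0.85 (-1.09 to -0.59), and cells with a Tcf15 UMI -0.86 (-1.22 to -0.46). Over the 10 markers the Meis1 ratio was below 0 for 10, with an interval below 0 for 5. The Mecom and Mllt3 ratios were above 0 for 10 of 10 markers each, with intervals above 0 for 5 and 6. Hlf was below 0 for 6 of 10. These sets of cells overlap, so the markers are not separate samples.

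The ratios of Mecom and Mllt3 were higher in cells without a stem marker than in cells with 3 or more. In cells without any of the 10 markers (6371 WT and 5862 cKO cells), Mecom was at 18.2 and 45.0 CPM (log2 1.31, 1.19 to 1.43) and Mllt3 at 11.6 and 25.4 CPM (log2 1.12, 0.97 to 1.28). Makeup moved with this, since 16.8% of these WT and 0.921% of these cKO cells passed the granulocyte-monocyte gate. Without a marker and without any gate (4188 and 5356 cells), the ratios were 0.80 (0.67 to 0.94) for Mecom and 0.86 (0.68 to 1.05) for Mllt3, while Meis1 was at -0.26 (-0.35 to -0.16) and Hlf at -0.19 (-0.27 to -0.10). In cells with 3 or more markers (44 and 94 cells), Mecom was at 126 CPM in both libraries (75.8 to 197 in WT and 101 to 155 in cKO). The ratio of Meis1 was also highest without a marker, at 0.09, and lay below 0 with 1 (-0.53), 2 (-0.93) and 3 or more markers (-0.88). Meis1 was at 50.2 and 53.3 CPM in cells without a marker, at 100 and 69.6 CPM in cells with 1, and at 149 and 78.4 CPM in cells with 2. Hlf went from 54.7 and 67.2 CPM without a marker to 186 and 122 CPM with 2 markers. In each library all 4 genes were higher in cells with 2 markers than in cells with none.

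**Figure D2:**
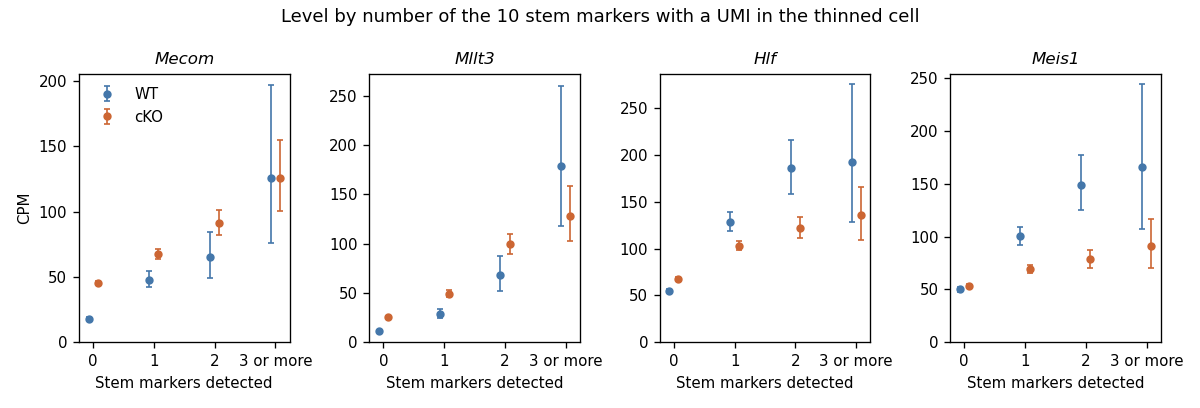
Level of Mecom, Mllt3, Hlf and Meis1 in CPM by the number of the 10 stem markers detected in the thinned cell, for WT and cKO, with exact Poisson 95% intervals. Mecom and Mllt3 of cKO lie above WT at 0, 1 and 2 markers, while Hlf and Meis1 of WT lie above cKO from 1 marker on.

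For 5 members the concentration in stem-gated cells was weaker in the cKO library with intervals apart, against 4.42% of 9144 genes: Mecom, Hlf, Mllt3, Meis1 and Hoxa9. The log2 level of stem-gated over all other cells was 1.83 (1.44 to 2.17) in WT and 0.91 (0.76 to 1.06) in cKO for Mecom, 1.65 and 0.70 for Hlf, 2.67 (2.31 to 3.01) and 1.67 (1.52 to 1.82) for Mllt3, and 1.57 (1.32 to 1.81) and 0.51 (0.35 to 0.67) for Meis1. In WT the other cells held 22.0 CPM of Mecom and 14.0 CPM of Mllt3, and in cKO 50.4 and 31.2 CPM. The makeup of these other cells differed, since the granulocyte-monocyte gate held 24.4% of the WT and 1.11% of the cKO UMIs. Against cells without a gate, chosen after seeing the data, the intervals still lay apart for Hlf (1.18 and 0.68), Mllt3 (2.45 and 1.71), Meis1 (1.24 and 0.50) and Hoxa9 (0.59 and 0.085), but those of Mecom overlapped, at 1.32 (0.94 to 1.67) and 0.88 (0.73 to 1.03). The share of all genes apart against cells without a gate was not computed. Hoxb5 was the Hox member most concentrated in the gate, at 2.17 (1.07 to 3.00) and 1.61 (1.21 to 1.98). Hoxa9 (0.79 and 0.10), Hoxa5 (1.17 and 0.72) and Hoxb4 (0.63 and 0.48) lay below it, and Hoxa7, at -0.05 (-0.54 to 0.38) in WT and 0.25 in cKO, was spread about evenly. The value was lower in cKO for 8 of 9 members, against 55.1% of genes, but the intervals of Hoxb5, Hoxa5 and Hoxb4 overlapped between the libraries. The median of the members was 1.57 in WT and 0.70 in cKO, and that of all genes 0.11 and 0.062. Most UMIs of each member lay outside the gate, since the gate held 11.9% of the Mllt3 UMIs in WT and 14.1% in cKO, its highest shares among the members.

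Gates of lineages held lower levels of the stem factors but not of all Hox genes. In WT the granulocyte-monocyte gate was at 4.98 CPM of Mecom, 5.46 CPM of Mllt3 and 19.1 CPM of Hlf, but still at 41.9 CPM of Hoxa7 and 39.8 CPM of Hoxa9. The lymphoid-primed gate held 99.4 CPM of Hoxa9 in WT and 96.2 in cKO, a difference within counting error, and 1 UMI of Hoxb5 in 759 WT cells. Hlf was lower in the cKO lymphoid-primed gate, at 17.9 against 41.9 CPM (log2 -1.20, -1.94 to -0.57, on 22 cKO UMIs). Meis1 was at 140 CPM (111 to 174) in the WT megakaryocyte gate, close to its level in the WT stem gate, and too few cKO cells (12) passed that gate for a comparison.

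In the erythroid gate 4 of 9 members were higher in cKO with an interval above 0, against 9.95% of the 9366 genes that reached 5 CPM there. Hlf was at 36.0 CPM in WT against 98.8 CPM in cKO (log2 1.43, 0.87 to 2.09), Mecom at 21.4 and 51.4 CPM (1.23, 0.51 to 2.12), and Hoxa9 at 42.7 and 91.0 CPM (1.07, 0.55 to 1.68). Hoxa5 went from 2 to 30 UMIs, with a ratio of 2.06 (0.38 to 5.47). Mllt3 (48.0 and 66.5 CPM) and Meis1 (77.4 and 66.5 CPM) did not differ there beyond counting error. In the cells without a gate, which made up most of each library, Mecom was at 31.2 and 51.5 CPM and Mllt3 at 16.3 and 30.5 CPM. Hoxa9 was at 78.0 and 94.4 CPM, Hlf at 88.9 and 76.7 CPM and Meis1 at 71.2 and 57.7 CPM. The ratio intervals of these genes and of Hoxa7 (52.7 and 44.0 CPM) and Hoxb5 (3.78 and 5.11 CPM) excluded 0. Those of Hoxb4 and Hoxa5 spanned it. How many of all genes excluded 0 there was not computed. Markers of other cells also differed between the libraries in the cells without a gate. Granulocyte-monocyte genes summed to 2520 CPM in WT and 651 in cKO, lymphoid-primed genes to 263 and 68.6, and neutrophil granule genes to 233 and 7.03. Their part in these values was not tested. Several members were also higher in cKO in the 184 WT and 98 cKO cells that passed several gates, among them Mllt3 (2.98, 2.16 to 3.97) and Mecom (2.34, 1.48 to 3.32).

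**Figure D3:**
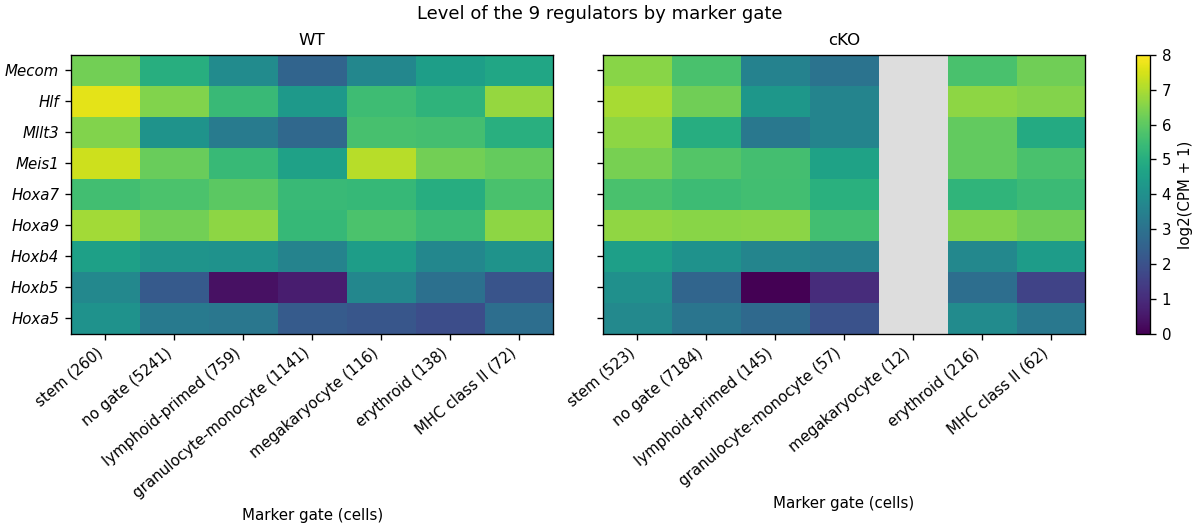
Heat map of log2(CPM + 1) of the 9 members (rows) in 7 groups of cells set by marker gates (columns, number of cells in parentheses), WT on the left and cKO on the right. Grey marks a gate with fewer than 50 cells. Mecom, Hlf, Mllt3 and Meis1 fall from the stem gate to the granulocyte-monocyte gate in both libraries, while Hoxa7 stays in a narrow range.

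The members were also higher in cells with few UMIs. For Mecom, Hlf, Meis1, Hoxa9 and Hoxb5 this was steeper in WT, with intervals apart. How many of all genes had such intervals apart was not computed, so this describes these genes only. Kept cells were split into 4 bins of equal cell number by total UMIs within each library. The bins differed in makeup too. In WT the stem gate held 6.50% of the thinned cells of the lowest bin and 0.39% of the highest, and the G2/M gate 4.55% and 55.9%. In cKO the stem gate held 12.3% and 2.17%, and the G2/M gate 8.56% and 42.0%. The part of this in the values below was not tested. From the lowest to the highest bin, WT Mecom went from 57.1 to 9.33 CPM, WT Hlf from 189 to 25.3 CPM and WT Meis1 from 118 to 27.0 CPM. In cKO the same genes went from 82.6 to 37.1, from 139 to 46.7 and from 83.1 to 45.1 CPM. Mllt3 was about as steep in both, with a log2 ratio of the lowest over the highest bin of 2.20 (1.89 to 2.52) in WT and 2.16 (2.01 to 2.31) in cKO, and the intervals of Hoxa7, Hoxb4 and Hoxa5 overlapped. Past a 2-fold excess in the lowest bin were 8 of 9 members in WT, against 15.4% of genes, and 5 of 9 in cKO, against 8.25%. The Hox genes ranged in WT from a log2 ratio of 0.64 for Hoxa7 to 3.29 for Hoxb5, and in cKO from 0.31 for Hoxa9 to 1.57 for Hoxb5.

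The difference between the libraries depended on the bin. In the highest bin the log2 ratio of cKO over WT was 1.99 (1.77 to 2.22) for Mecom, 1.21 for Mllt3, 1.70 for Hoxb5, 0.92 for Hoxa9, 0.88 for Hlf and 0.74 for Meis1, and 3 of 9 members lay past a 2-fold rise, against 3.96% of genes. In the lowest bin Mllt3 was at 1.17 (0.94 to 1.41) and Mecom at 0.53 (0.34 to 0.73), while Hlf (-0.44), Meis1 (-0.51), Hoxa7 (-0.34) and Hoxa9 (-0.25) were lower in cKO beyond counting error. There 1 of 9 members lay past a 2-fold rise, against 2.83%. Makeup moved with this: the granulocyte-monocyte gate held 37.6% of the highest WT bin and 2.17% of the highest cKO bin. In cells without a gate, the highest bin gave 1.23 (0.97 to 1.50) for Mecom, 0.88 for Mllt3, 0.56 for Hoxa9, 0.31 for Meis1 and 0.26 for Hlf, smaller but in the same direction.

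**Figure D4:**
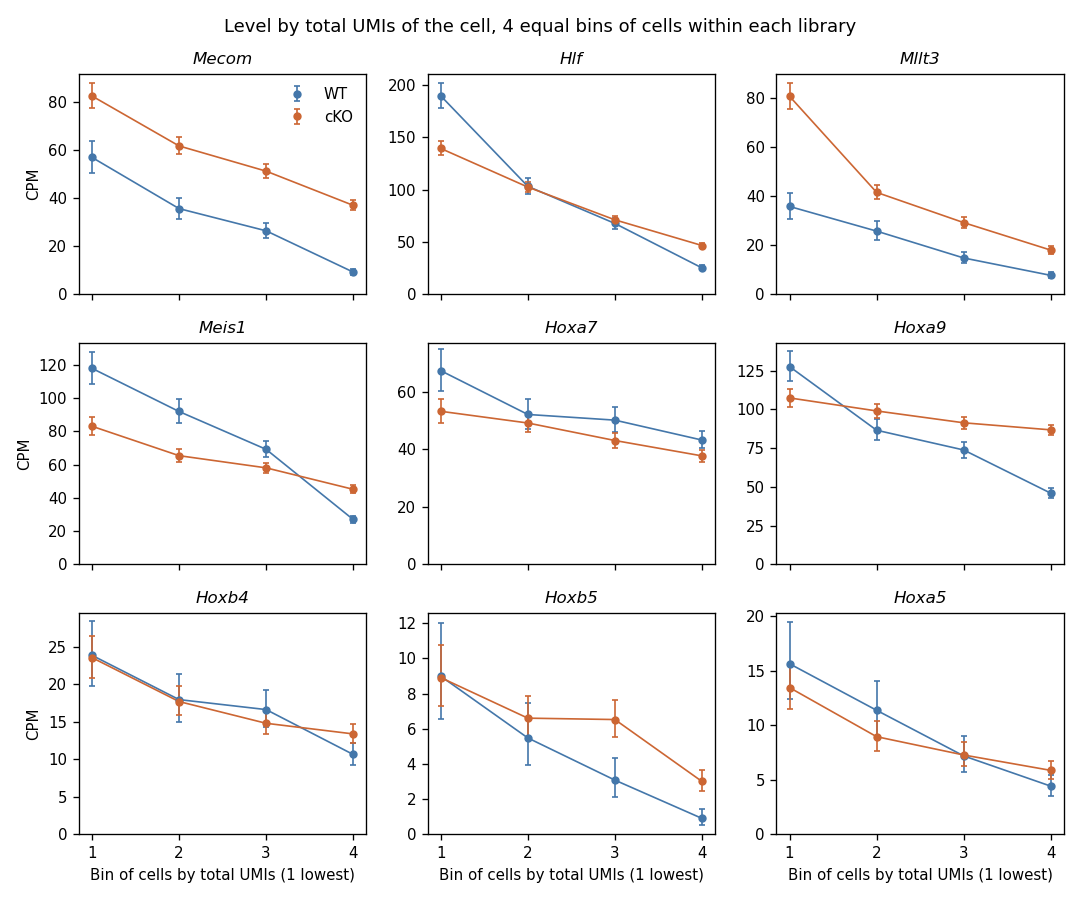
Level of each member in CPM (each panel has its own axis from 0) in 4 equal bins of the kept cells of a library by total UMIs, from the lowest (1) to the highest (4), for WT and cKO, with exact Poisson 95% intervals. The cKO lines of Mecom and Mllt3 lie above WT in all 4 bins, while those of Hlf, Meis1 and Hoxa9 start below WT and end above it.

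Cells in the G2/M gate (2259 of 7957 thinned WT and 2093 of 8375 thinned cKO cells) held less of every member in WT. The share of all genes that were lower in these WT cells was not computed, so this is not shown to be particular to the members. The WT log2 level of G2/M over other cells ranged from -1.03 (-1.25 to -0.82) for Mecom to -0.13 for Hoxa7, with -0.92 for Hlf, -0.87 for Meis1 and -0.82 for Mllt3. In cKO Mecom was at 54.2 CPM in the G2/M gate and 51.8 CPM outside it, a log2 ratio of 0.06 (-0.03 to 0.16). Hlf (-0.09), Mllt3 (-0.33) and Meis1 (-0.30) were still lower in cKO G2/M cells, and Hoxb5 was higher (0.46, 0.19 to 0.73). Makeup moved with the G2/M gate in WT, where it held 43.5% of the 1141 granulocyte-monocyte cells and 7.31% of the 260 stem-gated cells, against 31.6% of 57 and 17.6% of 523 in cKO. The part of this in the values was not tested.

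At equal depth a WT cell had on average 0.685 of the 9 members detected and a cKO cell 0.769. Stem-gated cells showed the other order, with 1.33 in WT and 1.11 in cKO. No cell had more than 5 members in WT or 6 in cKO.

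The rest of the HoxA and HoxB clusters was mostly near the limit of detection, and the 2 further genes at 5 CPM or more both stood higher in cKO. Hoxa10, the neighbour of Hoxa9, went from 6.50 to 18.4 CPM (log2 1.50, 1.32 to 1.69), and Hoxb2 from 5.04 to 11.4 CPM (1.17, 0.96 to 1.39). Within the stem gate they were at 0.14 and 0.35, with intervals that spanned 0. Named after their values were seen, 4 HoxB genes were close to absent in WT and low in cKO: Hoxb1 went from 1 to 37 UMIs, Hoxb7 from 1 to 25, Hoxb8 from 3 to 54 and Hoxb9 from 3 to 38. Their log2 ratios ranged from 2.43 (0.97 to 4.97) for Hoxb9 to 3.61 (1.61 to 9.52) for Hoxb1. Hoxa3 (2.04 and 1.69 CPM), Hoxa4, Hoxa6, Hoxb3 and Hoxb6 did not differ beyond counting error, and Hoxa13 and Hoxb13 had no UMI. The antisense transcript Hoxaas3, which overlaps Hoxa5 and Hoxa7, went from 4.88 to 2.52 CPM (log2 -0.95, -1.23 to -0.67).

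**Figure D5:**
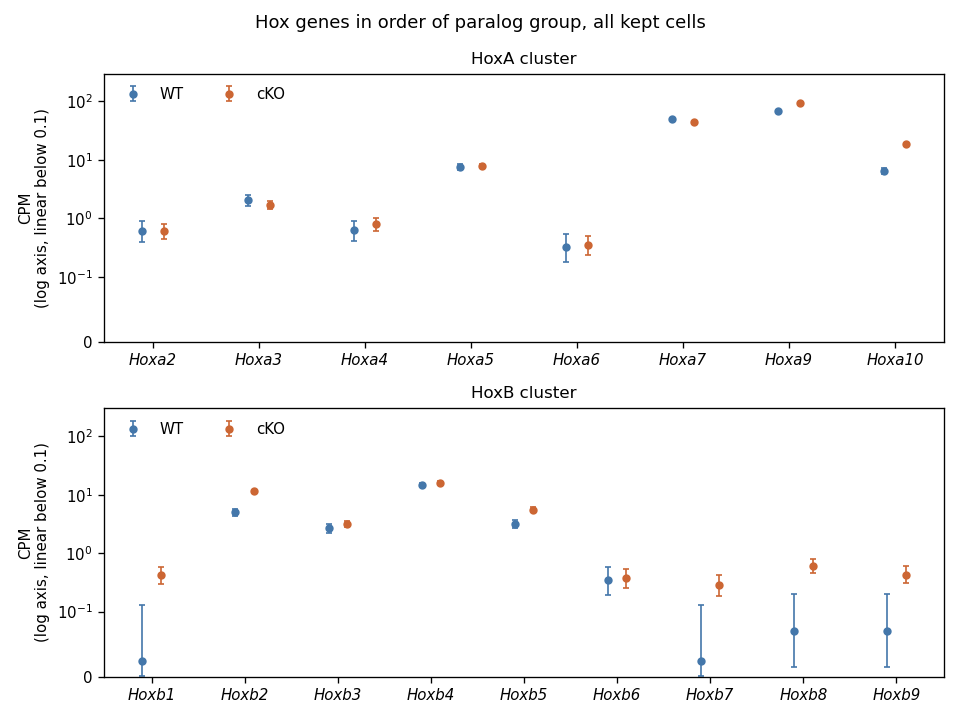
Level of the HoxA (top) and HoxB (bottom) genes with at least 10 UMIs over both libraries, in order of paralog group, in CPM over all kept cells (log axis, linear below 0.1), with exact Poisson 95% intervals. Hoxa10 and Hoxb2 of cKO lie above WT, as do the low Hoxb1, Hoxb7, Hoxb8 and Hoxb9, while Hoxa7 lies below.

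Among the TALE class of homeodomain factors, to which the partners of HOX proteins belong, Tgif1, a repressor, went from 43.0 to 22.0 CPM (-0.97 as log2), and in the stem gate from 51.6 to 23.0 CPM (-1.17, -1.68 to -0.63). Over all kept cells Pbx2 was at -0.15 and Tgif2 at 0.43.

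Chromatin regulators of Hox genes differed little. Among 19 tested genes of MLL, menin and DOT1L or elongation complexes the median was -0.06, with 0 past 2-fold in either direction. The highest were Rbbp5 (0.69) and Wdr5 (0.37), core subunits of MLL complexes, and the lowest Aff1 (-0.66) and Aff4 (-0.63), scaffolds of the elongation complex that MLLT3 joins. Among 18 Polycomb regulators the median was -0.18, again with 0 past 2-fold, from Ezh1 (-0.81) and the H3K27 demethylase Kdm6a (-0.73) to Eed (0.37) and Bmi1 (0.51), which stem cells need for self-renewal. In the stem gate 2 of 19 genes of the first list and 1 of 17 of the second lay past a 2-fold fall, no more than the 11.4% of all genes there, and 0 past a rise, against 4.09%. Of the PAR bZIP relatives of HLF, the circadian factor Dbp was at -0.18 and the repressor Nfil3 at 0.49. In the stem gate Dbp was at -0.31 (-1.14 to 0.69), and Nfil3 had 0 WT and 22 cKO UMIs.

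Other stem cell regulators split. Of 22 tested, 11 lay above 0, 6 past a 2-fold rise and 1 past a 2-fold fall, against 2.88% and 5.24% of all genes, with a median of -0.04. Tcf15, a bHLH factor of quiescent stem cells that is also 1 of the 10 gate markers, went from 6.80 to 29.1 CPM (log2 2.10), and Cdkn1c, the CDK inhibitor p57, from 6.99 to 29.1 CPM (2.06). Runx1, needed for blood stem cells to form, went from 61.6 to 21.9 CPM (-1.49), and Myb, a driver of progenitor growth, from 166 to 83.2 CPM (-0.996). Among stem-gated cells 24 were tested, 1 past a 2-fold rise, against 4.09% of all genes in the gate, and 5 past a fall, against 11.4%, with a median of -0.52 against -0.13. There Myb was at -1.10 (-1.35 to -0.83) and Runx1 at -0.67 (-1.18 to -0.12), while Tcf15 (0.31) and Cdkn1c (0.33) had intervals that spanned 0.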

How the data were processed

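Counts were measured in 2 libraries, 1 per genotype, grouped by the labels. The deposited matrices hold raw UMI counts, made by the authors for each gene and barcode by Cell Ranger 6.0.0 against mm10, per the labels. The labels name kit v2 and the study's methods a later version. The limits of the study were applied (over 200 genes; WT under 4000 genes and 10% mitochondrial UMIs, cKO under 4500 genes and 5%; hemoglobin under 5%). Simulated-doublet scores marked 629 WT and 686 cKO barcodes, at a rate of 0.8% per 1000 barcodes, and 618 and 677 of those within the limits were removed. Below 2000 UMIs, 188 WT and 99 cKO cells were left out of thinned values. Ratios are log2 cKO over WT with 0.5 prior counts. Intervals are exact (Poisson, conditional binomial, Clopper-Pearson; scipy 1.17.1). A share of 0 has a limit of 3 counts. Log2 lists took genes at 5 CPM or more, naming the 2 highest and 2 lowest of each. Alternatives used edgeR 4.0.16 (TMM) and numpy 2.4.6. On simulated data for all kept cells (8913 genes), 94% of 200 changed genes lay inside their intervals. Members, lists, markers and alternatives were chosen with earlier results of these data known. Some values of the list of TALE factors are not reported here.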

Additional observations from a re-analysis of the deposited data

How the results depend on the processing

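Over all kept cells, the members' median log2 ratio of 0.18 was 0.28 with median-of-ratios size factors, 0.013 with each cell scaled before averaging, -0.079 with the UMIs of thinned cells and -0.048 with the same mix of gates, and Hlf turned to -0.14, -0.11 and -0.23 under the last 3. The count of members past a 2-fold rise, 2, was 1, 1 and 0 under these. In the stem gate, the 1 member past a 2-fold fall became 0 with TMM, median-of-ratios or totals that leave out mitochondrial and ribosomal protein genes, without doublet removal, with 1 marker fewer per gate, with any cell that passes the stem gate and with thinning to 4000 UMIs, and 2 with thinning to 1000 UMIs. The 0 past a rise became 1 with thinning to 1000 UMIs or 1 marker more per gate, and 3 with thinning to 4000 UMIs, where the median was 0.38. Thinning to 4000 UMIs also gave 8 members detected more often and 0 less often, Meis1 higher by 3.52 percentage points and a WT Hoxa5 ratio of stem-gated over other cells of -1.22. Another seed left 1 member detected less often. With 1 marker fewer per gate the median of stem-gated over other cells was 1.12 in WT and 0.33 in cKO, and cKO Hoxa7 was at -0.086. Against cells without a gate the WT median was 1.18, and 7 members were lower in cKO. Members detected per cell were 0.370 in WT and 0.403 in cKO (difference 0.033) with thinning to 1000 UMIs, and 0.928 and 1.39 (difference 0.462) with thinning to 4000 UMIs. Apart from the construction of each alternative the cause was not tested. No doublet removal and equal limits in both libraries left the counts over all kept cells as they were. The use of thinned UMIs, the gate without 4 markers and the cells without a gate were chosen after seeing the data. No paired analysis was possible because each genotype has 1 library. Depth limits Hoxb5, Hoxa5 and Hoxb4 most, with 11, 14 and 20 WT UMIs in the stem gate.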

Other observations

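The genes with the pattern most like each member were found by Pearson's r of log2(CPM + 1) over 11 points, the gates with at least 50 cells (6 of WT and 5 of cKO). The points share libraries and depth, the 2 genes per member are the highest of all genes that reached 5 CPM in a library, and r is a description only. Mecom was most like Nkx2-3 (0.96) and Pim2 (0.94), Hlf most like Gpx7 (0.96) and Golga1 (0.95), and Meis1 most like Gatad1 (0.97) and Armc3 (0.96). Mllt3 and Hoxb5 were both most like Hoxb2 (0.97 each), followed by Cd59a (0.97) and Trim47 (0.96). Hoxa9 was most like Rtp4 (0.94) and Spry1 (0.93), Hoxa7 most like Csrnp1 (0.89) and Kdm6b (0.88), Hoxb4 most like Fam174a (0.94) and Lcp2 (0.89), and Hoxa5 most like Ttc8 (0.97) and Triobp (0.94).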
